A study of Mus musculus with 4 samples.

Results

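The regions described here are stretches of mouse embryonic stem cell chromatin that carried trimethylation of lysine 4 on histone H3 (H3K4me3) but lay far from every annotated transcription start site (TSS). They were selected on the scramble H3K4me3 library alone. Chromosomes 1 to 19 of the mm9 assembly were divided into fixed bins of 1 kb, and a bin was taken when it held at least 10 reads and all of it lay over 5 kb from the TSS of any transcript, coding or not, in the GENCODE vM1 annotation. Adjacent bins were merged. This gave 12675 regions from 17174 bins, of 51143 bins with that many reads anywhere on these chromosomes. The same minimum applied within 5 kb of a TSS gave 16984 regions, which serve as the comparison. Since the scramble reads chose the members, their level in that library is a description and supports nothing.

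The study used chromatin immunoprecipitation and sequencing (ChIP-seq) in E14TG2a.4 cells, a feeder-independent line of mouse embryonic stem cells kept undifferentiated with LIF. There were 4 libraries. A pair of libraries, replicates 1 and 2, came from E14 cells and an antibody against Jarid1b, and their labels name no shRNA. A further H3K4me3 library came from cells transduced with a PLKO.1 lentivirus with a scrambled short hairpin RNA (shRNA), and the last H3K4me3 library came from cells given a lentivirus with an shRNA against Jarid1b. The growth protocol describes puromycin selection of transduced cells and names no clone, so a pool and a single clone cannot be told apart from it. With 1 H3K4me3 library per condition there is no replicate check between conditions, and every interval below covers counting error only. Reads carry no molecular identifier, so some may be copies of the same molecule, which the intervals do not allow for.

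H3K4me3 is placed mainly by the SET1 and MLL complexes around active and CpG-rich start sites, and Jarid1b, encoded by Kdm5b, is a demethylase that removes it. Away from annotated start sites the mark can lie on start sites that an annotation does not hold, on CpG islands within or between genes, at some enhancers and on the promoters of transposable elements. Young LINE-1 elements, the mobile elements that copy themselves through RNA, begin in the mouse with tandem units called monomers that act as their promoter. No repeat annotation was used here, so elements are described by their sequence and spacing and not assigned to a named family.

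After 1 read was kept per strand and 5′ position, the libraries held from 1602370 (Jarid1b replicate 2) to 5158330 reads (scramble), with 4336767 in Jarid1b replicate 1 and 2635705 in the knockdown library. The Jarid1b files hold some of the same fragments, since 16.8% of plus-strand read starts in replicate 2 recur in replicate 1 and only 1.77% do after a step of 3 bases. Both files were therefore treated as a single sample, and passing in both is no check between cultures. In bins over 5 kb from a TSS that were enriched in neither H3K4me3 library, the knockdown library, scaled to the reads kept, held fewer reads than the scramble library, with a log2 ratio of −0.26 and a range of −0.35 to −0.15 over the 19 chromosomes. Promoters of the stem cell markers carried the mark: the 10 genes had 3 (Esrrb) to 401 (Pou5f1) scramble reads within 1 kb of the TSS, with a median of 190.5. Fibroblast markers had 0 to 38 reads and a median of 2.5, with Fap and Lum at 0. Endoderm and trophoblast markers had a median of 8.5 reads and the neural markers one of 16.5.

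The sequences below show the main kinds of far region, as 300 bases at the middle of the bin with the most scramble reads on the plus strand of mm9. None overlaps an annotated exon. The first pair represents the most frequent repeated units, and the capitals mark a 21-base word, found in 2654 far regions for family 1 and in 2069 for family 2. The unit of family 1 is shown from chr8:53391351-53391650, and that of family 2 from chr3:6299351-6299650, where the word returns after 208 bases.
Family 1: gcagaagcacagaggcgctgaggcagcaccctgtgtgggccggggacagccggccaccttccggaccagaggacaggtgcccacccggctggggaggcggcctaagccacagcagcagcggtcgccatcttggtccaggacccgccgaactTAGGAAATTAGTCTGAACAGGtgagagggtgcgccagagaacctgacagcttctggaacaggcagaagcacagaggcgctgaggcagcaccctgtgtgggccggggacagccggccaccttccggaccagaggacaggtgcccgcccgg
Family 2: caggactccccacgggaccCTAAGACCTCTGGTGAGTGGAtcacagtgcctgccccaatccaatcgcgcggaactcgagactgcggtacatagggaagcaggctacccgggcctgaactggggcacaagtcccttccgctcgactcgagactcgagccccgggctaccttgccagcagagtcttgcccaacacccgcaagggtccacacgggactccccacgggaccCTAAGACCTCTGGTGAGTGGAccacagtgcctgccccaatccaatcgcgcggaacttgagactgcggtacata
The last sequence is a CpG-rich region that held more H3K4me3 reads in the knockdown than in the scramble library, with each CG in capitals. It comes from chr7:25964351-25964650, 27.0 kb from the nearest coding start, D930028M14Rik, with 30 CG in the window.
D930028M14Rik: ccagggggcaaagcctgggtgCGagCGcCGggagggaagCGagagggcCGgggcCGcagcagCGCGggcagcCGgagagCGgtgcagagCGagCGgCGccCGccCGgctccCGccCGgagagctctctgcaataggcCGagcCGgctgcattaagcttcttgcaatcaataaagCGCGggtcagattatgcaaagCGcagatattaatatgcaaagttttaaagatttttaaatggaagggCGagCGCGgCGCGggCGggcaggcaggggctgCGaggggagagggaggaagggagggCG

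Most far regions were narrow. Of the 12675, 9287 were a single bin and the widest spanned 19 kb. The median region held 18 scramble reads per kb (quartiles 12 and 29) and 8 knockdown reads per kb (4 and 14), against 35.5 and 26 in regions near a TSS. Their median distance from a TSS was 28126 bases, and 234 regions adjoined a bin that qualified within 5 kb of a TSS. Of the regions named below, those in Katnal2, Tet1, Trim71, Esrrb, Zfp42, Lin28a, Brd3 and Zbtb7a and the one near Mb were among these. Introns held 3863, exons outside UTRs 558 and annotated UTRs 138, which makes 4559 intragenic regions. The other 8116 were intergenic. Just inside the selection threshold, 1790 far bins held exactly 10 scramble reads, with a mean of 4.44 knockdown reads. Just outside it, 2233 bins held 9 and had a mean of 3.80, so the threshold cuts through a continuous range of levels.

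The knockdown library was not used to choose the regions, so the selection did not fix its reads there. Knockdown H3K4me3 passed a one-sided Poisson test, with Benjamini-Hochberg adjustment over all bins, in 7728 of the 12675 far regions (61.0%). Of all 1 kb bins on these chromosomes, 1.42% passed. Regions near a TSS passed in 82.5% of cases. By bins of equal size the shares were 54.3% of far bins and 63.98% of near bins. The share followed the level: 27.9% of far regions with 10 to 14 scramble reads in their highest bin passed, then 62.0%, 89.7% and 97.7% with 15 to 24, 25 to 49 and 50 or more. Near regions in the same classes passed in 35.6%, 66.6%, 91.9% and 99.6%. No IgG or input library was used here, so passing cannot tell the mark from signal that any antibody would give. Far regions with a run of the telomere hexamer, described below as high in all 4 libraries, passed in 153 of 164 cases.

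Far regions differed from near ones in what their sequence was made of. A region was called repeated when at least 50% of the sampled 21-base words in its highest bin occurred 10 or more times on chromosomes 1 to 19, and low-copy otherwise. By this measure 5406 far regions (42.7%) were repeated, against 3.34% of near regions and 11.9% of all bins. The share rose with distance. It was 19.5% of regions at 5 to 10 kb from a TSS, then 29.8%, 43.8% and 55.3%, and 71.7% of the 2559 regions over 100 kb away. All bins at those distances went only from 11.7% to 14.9%. The median repeated region held 24.8 scramble reads per kb and the median low-copy region 15, which is a description, since those reads chose the regions. In the knockdown library H3K4me3 passed in 77.2% of repeated and 48.9% of low-copy regions.

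**Figure D1:**
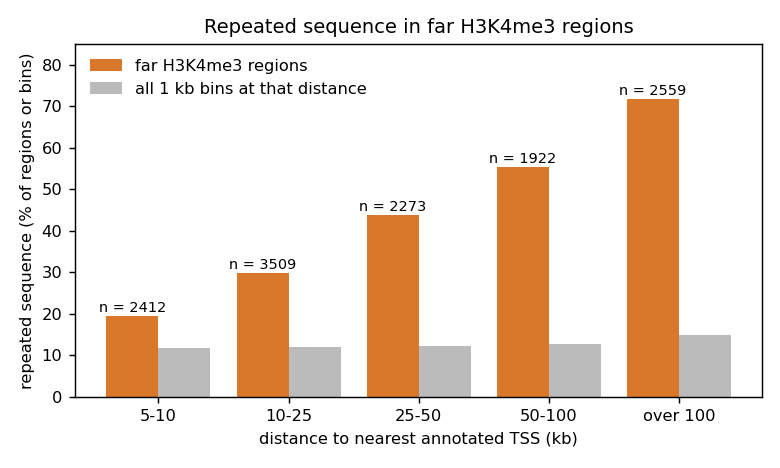
Bars give the percentage of far H3K4me3 regions (orange, n above each bar) and of all 1 kb bins (grey) made of repeated sequence, by distance to the nearest annotated TSS in kb. The far regions go from 19.5% at 5 to 10 kb to 71.7% over 100 kb, while all bins stay between 11.7% and 14.9%.

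Intragenic and intergenic regions differed in these measures and in their share of repeated sequence, which was 27.7% of intragenic and 51.1% of intergenic regions. Knockdown H3K4me3 passed in 53.9% of intragenic and 64.96% of intergenic regions. Among repeated regions the shares were 78.5% and 76.8%, in the opposite order. Among low-copy regions they were 44.5% and 52.6%. Intragenic regions also lay nearer to a TSS, at a median of 16922 bases against 39010. Low-copy regions in exons stood apart from those in introns: knockdown H3K4me3 passed in 63.3% of the 550 exonic and 40.5% of the 2611 intronic regions, and their median GC contents were 56.9% and 49.5%.

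The repeated regions were copies of few sequences. When regions that share at least 200 words of 21 bases were joined, 5667 of the 12675 (44.7%) fell into a single group, 4958 of them repeated. Regions that share with no other numbered 6582. Words taken in turn from the most frequent then sorted the regions into families. Family 1 had 2654 regions and family 2 had 2067, so these families made up 37.2% of all far regions. Both were tandem arrays. The word of family 1 returned after 212 bases in 2798 of 3894 spacings under 1 kb, and that of family 2 after 208 bases in 2811 of 3942. Family 6, with 184 regions and a median GC content of 58.6%, had a unit of 206 bases. Tandem units of about this length are known from the promoters of young mouse LINE-1 elements, and whether these regions belong to such elements was not tested against a repeat annotation. Family 3, with 540 regions, was defined by a run of CA and family 5, with 189, by a word present 69072 times on these chromosomes. Family 4 had 385 regions with no tandem spacing, left after regions of families 1 to 3 were set aside. Its word was found in 1559 far regions, most of them therefore in those earlier families.

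The words were taken from regions chosen on scramble reads, so their scramble levels are a description. On chromosomes 1 to 19 the family 1 word lay in 4098 bins, 3503 of which (85.5%) had at least 10 scramble reads. For family 2 these were 2832 of 4730 bins (59.9%) and for family 6 they were 320 of 561 (57.0%). The CA run of family 3, also taken this way, had that level in 2826 of 226326 bins (1.25%). Summed over all bins with the word, selected or not, family 1 held 14.0 times the genome rate in the scramble library and 13.6 times in the knockdown library. Family 2 held 10.4 and 8.36 times, and family 6 held 7.03 and 7.88 times. The log2 ratio of knockdown to scramble over these sums was −0.04 (95% interval −0.06 to −0.03) for family 1, −0.31 (−0.33 to −0.30) for family 2 and 0.16 (0.11 to 0.22) for family 6. These differences between 2 libraries are small beside the 2-fold used below for single regions. In the Jarid1b libraries the same bins held 2.32 and 2.40 times the genome rate for family 1, and 2.23 and 2.24 times for family 2. Relative to unmarked bins of the same GC content, however, the median region of family 1 had 1.04 and 0.951 times as many Jarid1b reads, and that of family 2 had 1.14 and 0.996 times.

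Where within a family the reads came from is not determined. Of sampled scramble reads in repeated far regions, 93.6% began on a 31-base word that occurs more than once in the genome, and of knockdown reads 95.02% did. In low-copy far regions the shares were 21.2% and 19.4%, and over all 31-base words of the genome the share was 16.8%. Reads in repeated regions also fell unevenly on the strands, with 70.96% on the plus strand in the scramble library and 70.9% in the knockdown library, against 53.3% and 53.5% in low-copy regions. The sums over a family do not depend on which of the counted bins with the word a read was given to. They can depend on reads given to copies outside those bins, such as copies without the exact word or on chromosomes not counted. The values of single repeated regions depend on the copy in either case.

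The family members with the most scramble reads, chosen after their values were seen, show the scale of the arrays. The family 1 region at chr8:53389001-53394000, 1206 kb from the nearest coding start, Aga, had 353 reads in the scramble library and 160 in the knockdown library, and 40 and 16 in Jarid1b replicates 1 and 2. The family 2 region at chr3:6297001-6308000 was 11 kb wide and one of the widest of all, with 929 scramble reads, 407 knockdown reads, and 91 and 36 Jarid1b reads. Both were intergenic and had log2 ratios of −0.17 (−0.45 to 0.10) and −0.22 (−0.39 to −0.05). A different array made the second largest group of shared sequence. All of its 46 regions lay between positions 114440001 and 114587000 of chromosome 6. They summed to 669 scramble and 205 knockdown reads. Their median log2 ratio was −0.87, lower than in families 1, 2 and 6, and knockdown H3K4me3 passed in 2 of the 46. By the same test scramble H3K4me3, which chose them, passed in only 10.9%. The regions lie close together, so the local background of 10 kb on each side lies partly within the array itself.

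**Figure D2:**
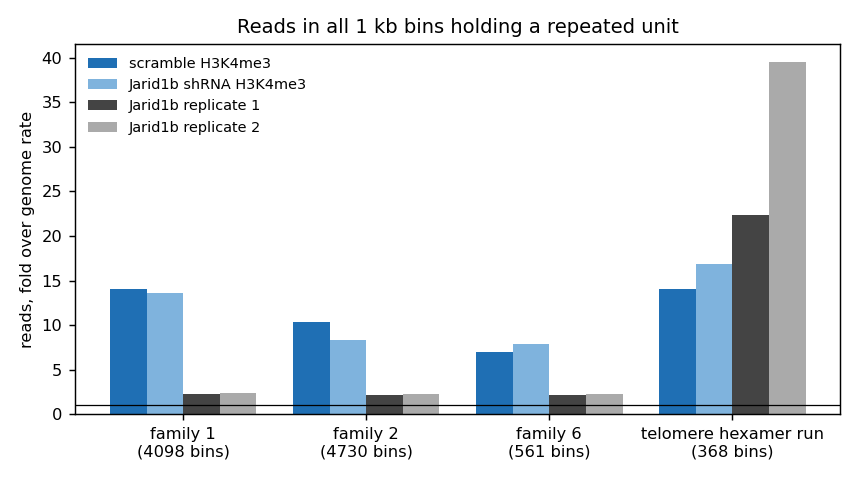
Bars give reads in all 1 kb bins that hold the word of families 1, 2 or 6 or a run of the telomere hexamer, as fold over the genome rate (line at 1), in the 4 libraries. Families 1, 2 and 6 stand at 7.03 to 14.0-fold in H3K4me3 and at 2.16 to 2.40-fold in Jarid1b, whereas bins with telomere runs are high in all 4 libraries.

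Among low-copy regions outside read pile-ups, the intergenic region with the most scramble reads in 1 bin was chr17:4626001-4627000. It lay 367.8 kb from the start of Arid1b, which encodes a chromatin remodelling subunit, and held 378 scramble reads, 100 knockdown reads, and 8 and 6 Jarid1b reads. On the same chromosome, chr17:17141001-17143000 had 401 scramble and 81 knockdown reads and chr17:17315001-17317000 had 333 and 67. These regions lay within 200 kb of each other and were called lower in the knockdown library, at −1.34 (−1.70 to −0.99) and −1.34 (−1.75 to −0.96). At chr8:72107001-72109000, 41.4 kb from the zinc finger gene Zfp868, the counts were 331 and 145, a ratio of −0.22 (−0.51 to 0.06). At chr17:15158001-15163000, 13.4 kb from Gm3448, they were 515 and 416, a ratio of 0.66 (0.47 to 0.85). All of these passed in the knockdown library, and their ratios ran in both directions.

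The intragenic regions with the most scramble reads were intronic. In Katnal2, which encodes a katanin-like protein, chr18:77277001-77280000 held 388 scramble and 106 knockdown reads, a ratio of −0.90 (−1.23 to −0.59), and 13 and 7 Jarid1b reads. In Tet1, which encodes an enzyme that oxidises 5-methylcytosine, chr10:62348001-62351000 held 347 scramble and 148 knockdown reads, and 21 and 10 Jarid1b reads. Its GC content was 60.7% and it contained a Tet1 start in RefSeq that GENCODE vM1 does not have. In Top1, the gene of topoisomerase I, chr2:160478001-160482000 held 255 and 57 H3K4me3 reads, a ratio of −1.19 (−1.63 to −0.77). The region in BC032203, chr17:46945001-46956000, was 11 kb wide and held 470 and 153 reads. In the non-coding gene Gm11019, chr13:98251001-98260000 held 689 and 152 reads, a ratio of −1.21 (−1.47 to −0.96). Top1 and Gm11019 were called lower, while Katnal2, Tet1 and BC032203 were not called.

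Wide regions of low-copy sequence included 2 in genes of stem cells. Both adjoined a bin that qualified within 5 kb of a TSS, so their widths are those of the part beyond 5 kb. In Trim71, which encodes an RNA-binding ubiquitin ligase of early embryonic cells, chr9:114453001-114468000 spanned 15 kb, the widest outside pile-ups, with 361 scramble and 177 knockdown reads and a ratio of −0.06 (−0.33 to 0.20). In Esrrb, which encodes an orphan nuclear receptor of the pluripotency network, chr12:87817001-87828000 spanned 11 kb with 258 and 165 reads and a ratio of 0.32 (0.03 to 0.61). The Esrrb promoter as the annotation places it had 3 scramble reads. No bin of either region passed in the knockdown library, where the local background of 10 kb on each side lies partly within the region itself.

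Some far regions lie at start sites that a later annotation holds. RefSeq start sites were placed on mm9 by their sequence, and 465 of the low-copy far regions were within 1 kb of one, which is 6.66% of those outside chromosome 18, where no RefSeq start was used here. In the repeated regions the share was 0.384%. Knockdown H3K4me3 passed in 66.5% of these 465 and in 47.7% of the 6520 low-copy regions without such a start. Examples with the most scramble reads, chosen after their values were seen, are chr14:22299001-22309000 at Gm30363 (555 scramble and 201 knockdown reads), chr12:111828001-111831000 at B930059L03Rik (397 and 156) and chr5:34678001-34683000 at a RefSeq start of Rnf4, a SUMO-targeted ubiquitin ligase (392 and 163).

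Short motifs were counted in the highest bin of each region on both strands. The GC box (GGGCGG), bound by Sp1, was in 38.2% of low-copy far regions, 71.9% of near regions and 8.78% of all bins. The octamer of Oct4 and its relatives (ATGCAAAT) was in 4.81%, 3.10% and 8.36%, and the site of Esrrb (TCAAGGTCA) in 2.45%, 1.95% and 2.18%. A Ctcf core (AGGGGGCGC) was in 1.55%, 3.85% and 0.204%, the core of the Nrf1 site (GCGCATGC) in 3.56%, 5.12% and 1.13%, and an Ets site (ACCGGAAGT) in 0.743%, 1.68% and 0.177%. The E-box CACGTG was in 17.3%, 19.5% and 9.62%. The families differed here as their sequences do: the GC box was in 69.7% of family 1 and 2.76% of family 2, and the E-box in 1.51% and 42.1%. None of these motifs contains another. Far regions had a median GC content of 51.1% against 57.0% near a TSS and 41.7% in all bins, and the part of GC content in these shares was not tested.

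Jarid1b was called at few far regions, and those calls centred on a single kind of sequence. Both Jarid1b libraries passed in the same bin in 279 of the 12675 far regions (2.20%) and in 1.75% of near regions, where 0.0327% of all bins did. In bins of equal size the shares were 1.87% of far and 0.995% of near bins. Of the 279, 204 lay in pile-ups, defined as regions with a bin of 30 or more reads in Jarid1b replicate 1. Of the 298 near regions called, only 64 did. Outside pile-ups 75 of 12454 far regions were called (0.602%), so the far share was above the near share only with pile-ups included. A run of 3 units of the telomere hexamer CCCTAA, on either strand, was found in 163 of the 279 (58.4%), in 1 of the 12396 other far regions and in 368 of all bins (0.0154%). So 163 of the 164 far regions with such a run were called. This search was made after sequences of called regions had been seen. The median region with a telomere run had 31.8 and 56.3 times the genome rate in Jarid1b replicates 1 and 2.

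The telomere runs were not high in Jarid1b alone. Over all 368 bins with a run, reads stood at 22.4 and 39.5 times the genome rate in the Jarid1b libraries, 14.1 times in scramble H3K4me3 and 16.9 times in knockdown H3K4me3. Without them, 116 far regions remained called, 41 of them outside pile-ups. No IgG or input library was used here, so signal that any antibody would give and signal from Jarid1b cannot be told apart. With a background taken by GC class in place of the genome rate, 253 far regions were called.

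Of the 5 regions outside pile-ups with the highest mean Jarid1b enrichment, 4 held a telomere run. At chr1:64180001-64181000, 11.6 kb from the start of Klf7, a zinc finger gene of the nervous system, there were 27 and 26 Jarid1b reads, or 16.5 (10.9 to 24.0) and 43.1 (28.1 to 63.1) times the genome rate. In the H3K4me3 libraries this region had 25 scramble and 10 knockdown reads. In an intron of Tacr2, which encodes a tachykinin receptor, chr10:61721001-61722000 had 21 and 25 Jarid1b reads, and at chr17:51464001-51465000, 145.8 kb from Tbc1d5, there were 23 and 22. The Rttn intron region chr18:89200001-89201000 had 29 and 22 Jarid1b reads, with 26 scramble and 12 knockdown H3K4me3 reads. Of the 5, the only one without a telomere run was chr3:56379001-56380000, far from any gene, with 21 and 27 Jarid1b reads and with 126 scramble but 11 knockdown H3K4me3 reads. The 3 pile-ups with the most scramble reads lay together between Ezh2 and Pdia4, from position 47603001 to 47706000 of chromosome 6. There the widest, of 18 kb, had 710 and 270 Jarid1b reads, 884 scramble reads and 741 knockdown reads. Its GC content was 65.5%, above the median of 44.3% for all 221 pile-ups.

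Away from pile-ups, Jarid1b reads formed a shallow maximum on the far regions. At the middle of low-copy regions the mean was 3.14 and 3.40 times the genome rate, against 1.71 and 1.72 at 1.9 kb to the left. In repeated regions it went from 0.68 and 0.61 to 3.09 and 3.06. Against unmarked bins of the same GC content the median low-copy far region outside pile-ups had 1.43 and 1.33 times as many Jarid1b reads. With pile-ups included, low-copy far regions had 1.44 and 1.44 times, repeated far regions 1.09 and 0.951 times, and regions near a TSS 1.29 and 1.25 times. The deposited minus-strand reads of the Jarid1b files lie 1 read length too far left, since 64 and 24 of them fall within assembly gaps as deposited and none when moved to the right by 34 and 26 bases. With that move 281 far regions were called.

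**Figure D3:**
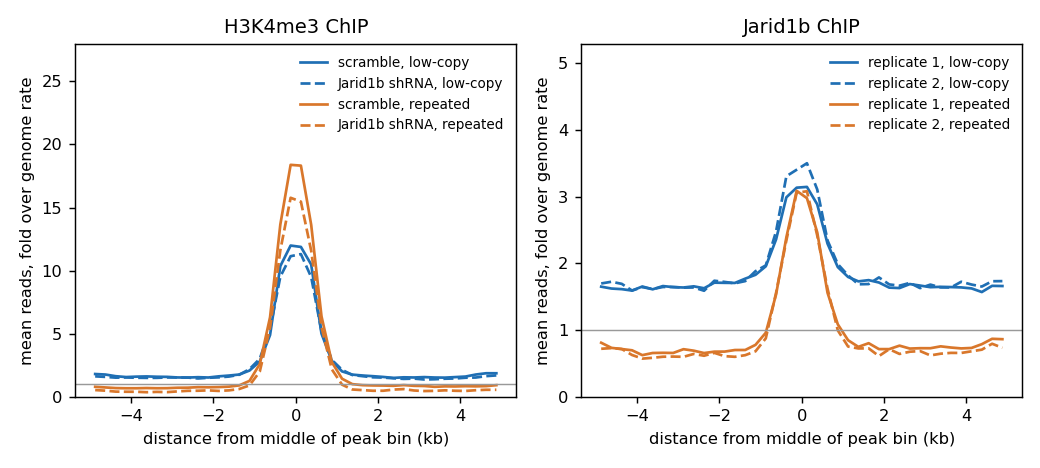
Lines give the mean reads around the middle of the highest bin of low-copy (blue, n = 7068) and repeated far regions (orange, n = 5384), pile-ups left out, as fold over the genome rate in windows of 0.25 kb against distance in kb. H3K4me3 rises to 11.3-fold and 15.8-fold in the knockdown library, and Jarid1b to between 3.08-fold and 3.50-fold.

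The ratio of knockdown to scramble H3K4me3 is given as a description, because the scramble reads chose the regions and tend to be high in them for that reason. It was compared in 9106 far regions with at least 20 reads over both libraries. A ratio of at least 2-fold whose interval excluded 0 was higher in the knockdown library in 407 of them (4.47%) and lower in 775 (8.51%). Over all far and near regions compared, 14.9% were higher and 5.18% lower. The median over all 12675 was −0.30, close to the −0.26 of unmarked bins, and that over near regions was 0.27. When the far regions were instead selected on the knockdown library, by the same minimum, the median of the resulting 6356 regions was 0.16, with 595 higher and 161 lower. The direction of the median thus changed with the selecting library, but the sets differed in other ways too. The same 10 reads are a larger share of the smaller knockdown library. Knockdown-selected regions had a median GC content of 54.3% against 51.1%, and 51.4% against 42.7% were repeated. The part of each in the change was not tested.

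**Figure D4:**
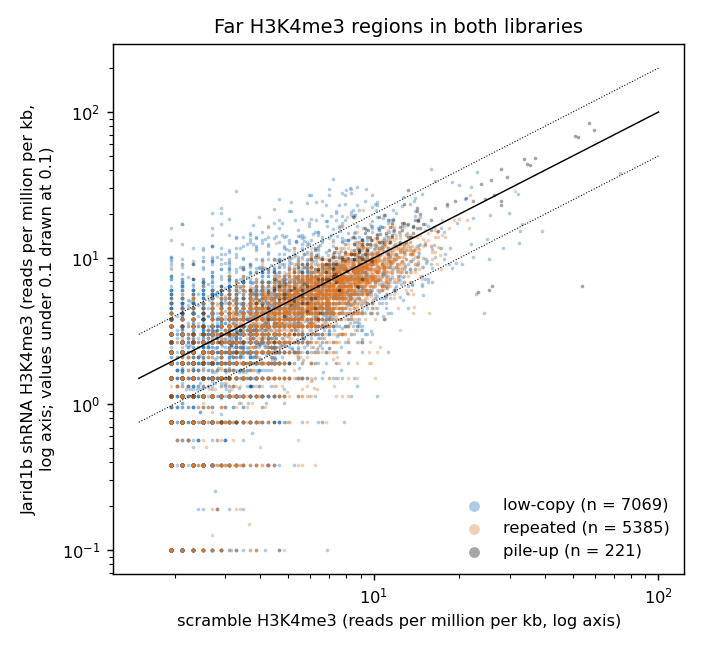
Each point is a far region, plotted by its scramble and knockdown H3K4me3 in reads per kb scaled to each library on log axes, for low-copy (blue), repeated (orange) and pile-up regions (black); lines mark equal levels and 2-fold differences. With pile-ups counted in either class, 336 of 4507 repeated regions compared were lower and 35 higher. Of 4599 low-copy regions compared, 439 were lower and 372 higher. The median ratios were −0.28 and −0.33. The median repeated region held more scramble reads, 24.8 against 15 per kb.

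From 50% GC upwards, the median ratio of low-copy regions rose with GC content under either selection, while that of repeated regions lay between −0.25 and 0.14. Among regions selected on the scramble library, the median of low-copy regions was −0.73 under 40% GC, −0.79 at 40 to 45%, −0.55 at 45 to 50%, −0.29 at 50 to 55%, 0.23 at 55 to 60%, 0.74 at 60 to 65% and 1.33 from 65%. Of the 138 compared in the last class, 102 were higher and 0 lower. Regions near a TSS went from −1.05 under 40% to 1.10 from 65%. Repeated regions selected on the scramble library also rose at low GC content, with medians of −1.95, −1.20, −0.49 and −0.25 in the first 4 classes, where 39 of 49, 67 of 171, 113 of 922 and 74 of 1555 compared were lower. In the last 3 classes their medians were −0.16, −0.17 and 0.08, with 9 of 1128, 3 of 574 and 4 of 108 higher. Selected on the knockdown library, low-copy regions had medians of 0.30, 0.13, 0.09, 0.44, 0.75, 0.99 and 1.49 over the 7 classes, so that the order below 50% GC was not that of the scramble selection. Repeated regions selected on the knockdown library had medians of 0.31, −0.10, 0.18, −0.03, −0.10, −0.09 and 0.14. The first of these classes held only 8 compared regions. GC content and the number of copies were the properties set apart here, and other properties of these sequences were not tested.

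**Figure D5:**
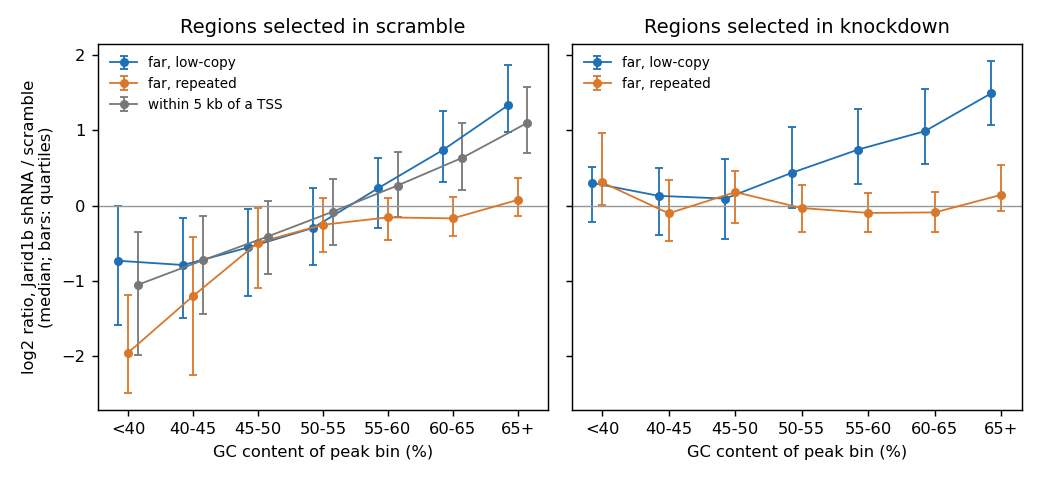
Points give the median log2 ratio of knockdown to scramble H3K4me3 and bars its quartiles, by GC content of the highest bin, for regions selected on the scramble library (left, with regions near a TSS in grey) and on the knockdown library (right). Low-copy regions reach 1.33 and 1.49 from 65% GC, whereas repeated regions stay between −0.17 and 0.14 from 55% GC and, selected on the scramble library, fall to −1.95 under 40%.

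The highest ratios belonged to CpG islands by their sequence. At chr8:111228001-111229000, 10.04 kb from the start of the homeobox gene Zfhx3, 17 reads of the scramble library faced 76 of the knockdown library, which is 3.13 (2.36 to 3.98) on the log2 scale, with a GC content of 76.7% and 11 and 4 Jarid1b reads. Near D930028M14Rik the region at chr7:25964001-25965000 had 10 and 42 reads, a ratio of 3.04 (2.02 to 4.20), and 14 and 8 Jarid1b reads. In an exon of Rtn4rl2, which encodes a Nogo receptor homologue, chr2:84712001-84713000 had 11 and 45 reads and a ratio of 3.001 (2.03 to 4.10). The same counts were found at chr7:144514001-144515000, 8.37 kb from the start of Ebf3, a transcription factor of neural development, where Jarid1b had 20 and 10 reads. At chr15:100883001-100884000, 830 bases from a RefSeq start of Fignl2, there were 15 and 58 reads and a ratio of 2.92 (2.08 to 3.85). The 5 had GC contents of 66.3% to 76.7% and CpG contents of 0.82 to 0.95 of the number their bases would give by chance.

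At later RefSeq starts 63 of 364 low-copy regions compared were higher and 22 lower, against 290 and 403 of 4051 without one. Among the highest, chosen after their values were seen, were A330074K22Rik (24 scramble and 67 knockdown reads, ratio 2.45), Dnmbp (37 and 92, ratio 2.28), Cplx2 (36 and 78, ratio 2.08), Shisa8 (26 and 55, ratio 2.05) and Pcgf5 (53 and 111, ratio 2.04). Cplx2 encodes a complexin of the synapse and Pcgf5 a subunit of a Polycomb complex. In exons, 83 of 421 low-copy regions compared were higher and 5 lower. In introns 83 of 1505 were higher and 147 lower. These sets differ in GC content, with medians of 53.1% at RefSeq starts and 49.7% without one, and 56.9% in exons and 49.5% in introns. The part of GC content in these counts was not tested.

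The 5 lowest ratios outside pile-ups were found at regions where the knockdown library had no read. The first value given is the log2 ratio with a floor of 3 knockdown reads in place of 0. The second is the upper bound of the 95% interval at 0 knockdown reads. At chr18:7319001-7324000, 23.6 kb from Armc4 and in mostly repeated sequence, the scramble library had 100 reads and the knockdown library 0, which gives −4.09 and −3.77. At chr5:105356001-105358000, near Gm3209, the counts were 71 and 0, with −3.60 and −3.26. In an intron of Mtmr7, chr8:41652001-41654000 had 50 and 0 reads, with −3.09 and −2.74, in mostly repeated sequence. In an intron of Osbpl10, which encodes an oxysterol-binding protein, chr9:115059001-115062000 had 49 and 0 reads, with −3.06 and −2.71. At chr11:31881001-31883000, 16.4 kb from 4930524B15Rik, there were 43 and 0 reads, with −2.87 and −2.51. Jarid1b replicate 1 had 10, 3, 2, 7 and 5 reads in these regions.

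Regions with such wide gaps were taken as a low group from the scramble selection and a high group from the knockdown selection. These groups differed in GC content. Each selection favours the direction of its group, and the opposite combinations were not counted. Of the scramble-selected regions, 31 had an interval wholly under −1.5, a limit chosen after the values were seen. Their GC contents were 33.4% to 49.9%, 25 were wider than 1 bin, 16 were low-copy and 9 had no knockdown read. Of the knockdown-selected regions, 43 had an interval wholly above 1.5, with GC contents of 52.1% to 78.7%, and 41 were low-copy. The widest low-copy region of the first group was in an intron of Brd3, a reader of acetylated histones. There chr2:27351001-27358000 held 153 scramble reads over 7 kb and 7 knockdown reads, a ratio of −3.48 (−4.82 to −2.40), with 21 and 8 Jarid1b reads. At the assembly's start of chromosome 11, chr11:3000001-3005000, a pile-up with 178 and 115 Jarid1b reads, held 602 scramble and 77 knockdown reads. In the high group, an exon of Kbtbd11 at chr8:15027001-15030000 held 124 scramble and 232 knockdown reads, and chr15:85500001-85503000, 63.9 kb from Ppara, held 108 and 214.

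Regions near genes of the listed groups were few, and their calls are to be read beside the 4.47% higher and 8.51% lower among all far regions compared and the median of −0.30. Within 50 kb of the starts of 27 pluripotency regulators there were 36 far regions, of which 19 were compared, 3 higher (near Nanog, Trim28 and Utf1) and 1 lower (near Prdm14). Knockdown H3K4me3 passed in 13, and the median ratio was −0.17. In an intron of Zfp42, a marker of pluripotent cells, chr8:44379001-44387000 held 259 scramble and 82 knockdown reads, a ratio of −0.69 (−1.07 to −0.33). Near Tdgf1, which encodes a Nodal coreceptor, chr9:110863001-110866000 held 136 and 50 reads. In Lin28a, which encodes an inhibitor of let-7 maturation, chr4:133566001-133569000 held 87 and 31 reads, a ratio of −0.52 (−1.16 to 0.09).

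Around 45 neural regulators there were 25 far regions, 7 of 16 compared being higher and 2 lower, with a median over the 25 of −0.35. Those higher lay near Gbx2 and Pax2, with 2 regions each, and near Pax3, Ebf3 and Otx2. Those lower lay near En1 and near Olig1 and Olig2. In an exon of Asb18, 35.1 kb from the homeobox gene Gbx2, chr1:91864001-91866000 held 56 scramble and 75 knockdown reads, a ratio of 1.39 (0.87 to 1.92), at a GC content of 59.7%. At chr16:91249001-91252000, 19.5 kb from Olig1, the counts were 49 and 10, a ratio of −1.32 (−2.47 to −0.33), in repeated sequence of 45.3% GC. The third named region, near Pax3 at chr1:78243001-78244000, belonged to family 1 and had 35 and 12 reads.

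Mesoderm, endoderm and trophoblast regulators had 20 regions, with 2 higher, near Cdx2 and Gata4, and 0 lower of 15 compared. The one near Gata2, a blood and trophoblast factor, chr6:88102001-88103000, had 44 scramble and 23 knockdown reads and a ratio of 0.03 (−0.76 to 0.79), and that near Twist1, chr12:34684001-34686000, was a family 2 array with 47 and 24. Near Gsc, a factor of the embryonic organizer, chr12:105672001-105673000 had 43 and 15. Hox genes, which lie in dense clusters with many annotated starts, had 2 regions. At chr6:52241001-52242000, between Hoxa13 and Evx1, there were 14 and 14 reads, and at chr11:96014001-96015000 near Hoxb13 there were 12 and 0.

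Among 16 regulators of H3K4 methylation there were 19 regions, of which 2 of 10 compared were lower, near Wdr5 and Mll3, and 0 higher. The region near Wdr5, which encodes a shared subunit of the methyltransferase complexes, is the one in Brd3 described above. In Setd1b, a gene of an H3K4 methyltransferase, chr5:123599001-123602000 held 94 scramble and 41 knockdown reads. In an intron of Kdm5b, the gene of Jarid1b itself, chr1:136464001-136468000 held 90 scramble and 26 knockdown reads, a ratio of −0.82 (−1.51 to −0.18), with 7 and 3 Jarid1b reads. Its interval excluded 0 but its size was under 2-fold, so it was not called.

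Housekeeping genes had 32 regions, with 4 of 24 compared lower, among them regions near Tpi1, Ubb and Tbp, and 0 higher. Near the translation factor gene Eef1a1, chr9:78368001-78372000 held 356 scramble and 124 knockdown reads, a ratio of −0.55 (−0.86 to −0.25). In an intron of Pigl near the ubiquitin gene Ubb, chr11:62323001-62328000 held 339 and 76 reads, a ratio of −1.19 (−1.57 to −0.83). In Zbtb7a near Eef2, chr10:80606001-80612000, of 65.6% GC, held 164 and 165 reads, a ratio of 0.98 (0.66 to 1.30), just under 2-fold.

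Imprinted genes had 10 regions, with 1 of 9 compared lower. This was chr2:157411001-157413000 near Nnat, with 44 scramble and 2 knockdown reads and a ratio of −3.49 (−6.58 to −1.55). Near the non-coding gene Meg3, chr12:110764001-110769000 held 182 and 53 reads, a ratio of −0.81 (−1.28 to −0.36), and near Snrpn, chr7:67307001-67309000, a family 1 array, held 57 and 33. Tissue genes silent in stem cells had 7 regions, with 0 of 4 compared higher or lower. Near the muscle gene Ckm, chr7:19960001-19962000 held 29 and 18 reads, and near the myoglobin gene Mb, chr15:76908001-76909000 held 27 and 14. Near Umod, a kidney gene, chr7:126648001-126649000 was a family 1 copy with 25 and 9.

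The gene with the most low-copy far regions, a count made after the values were seen, was Gm20388, a long annotated locus of chromosome 8 with 43. Among its 46 far regions, 5 were called higher and 1 lower, beside 4.47% and 8.51% of all far regions compared. How many of the 46 were compared is not given here. Sh3pxd2a had 12 low-copy far regions and Dst, Fgfr2, Gm16889 and Pitpnc1 had 11 each. Fgfr2, a growth factor receptor gene, had 484 scramble and 187 knockdown reads over all its far regions.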

How the data were processed

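ChIP-seq was analysed in 4 libraries of mouse embryonic stem cells. Per the labels' protocols, tags were mapped to mm9 with Bowtie (version not given in the sources used here), 1 match was kept per position, and peaks were called with MACS at an FDR under 0.2 against IgG. The deposited rows, 1 per aligned read with its coordinates and strand, precede those last steps. From these coordinates 1 read was kept per strand and 5′ position on chromosomes 1 to 19, X and Y, shifted 75 bases inwards, and counted in 1 kb bins (Python 3.11.15, numpy 2.4.6, scipy 1.17.1, pandas 2.3.3).

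Members and gene lists were chosen with earlier results of these data known. Enrichment was a one-sided Poisson test against the genome rate or, where larger, the rate of 10 kb on each side, adjusted by the Benjamini-Hochberg method over all bins at 0.05, and a region passed when any of its bins did. Ratios are of reads scaled to the reads kept, with 95% exact Clopper-Pearson intervals given the summed reads. Named regions, outside pile-ups, were the 5 intragenic and 5 intergenic with the most scramble reads in a bin, the 4 widest, the 5 highest and 5 lowest ratios, the 5 highest in Jarid1b, 3 per gene list and 3 pile-ups. Some sequences are not reported here. RefSeq promoter windows (GRCm38) were placed on mm9 by unique 31-base words, 30200 of 32847 once. Repeats were scored on 1 in 64 of all 21-base words. The tests were tried on simulated counts with known folds.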

Additional observations from a re-analysis of the deposited data

How the results depend on the processing

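Over the 18 alternatives, the number of far regions was 8234 and 6153 with minima of 15 and 20 reads, 24075 with all deposited rows, 6356 when selected on the knockdown library and 7269 without repeated sequence, from 12675. Regions enriched in the knockdown library stayed within 1.5 times of 7728 except without repeated sequence (3553). The 279 Jarid1b regions became 75 without pile-ups and 480 against the genome rate alone, and ranged from 316 to 920 when either Jarid1b replicate was left out, so the shallower replicate 2 sets most of that count. The 407 higher regions became 264 and 197 with minima of 15 and 20, 807 with all rows, 232 scaled to regions near a TSS and 679 scaled to background bins. The 775 lower ones became 161 under knockdown selection, 1412 and 405 under those scalings and 439 without repeated sequence. The median ratio, −0.30, became −0.26 and −0.25 with minima of 15 and 20, −0.71 with all rows, and −0.57 and −0.038 under the scalings. It was −0.22 with the GC trend of near regions removed and −0.33 without repeated sequence. It turned to 0.16 under knockdown selection. With the scaling to background bins, higher calls outnumbered lower ones. Leaving out repeated sequence and moving the Jarid1b minus-strand reads were chosen after seeing the data. No paired analysis was possible because replicate numbers exist in the Jarid1b group only. A median low-copy region rests on 15 scramble and 7 knockdown reads per kb, which limits single regions.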

Other observations

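Regions that qualified only in the knockdown library extend the picture of far H3K4me3. Of 6356 far regions with at least 10 knockdown reads in a bin, 422 had no bin of that level in the scramble library, and 377 of these were low-copy. Their median GC content was 54.0%, and 54.5% were intragenic. Because the knockdown reads chose them, their ratios (median 1.86 over the 422) are not evidence of a gain. RefSeq starts lay within 1 kb of 21.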
